A study of Homo sapiens with 4 samples.

Results

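H3K4me3 intervals of THP-1 cells that have no counterpart in RS4;11 cells were described. The members were chosen by position alone, as the distinct H3K4me3 intervals of the THP-1 sample that share no base with any H3K4me3 interval of the RS4;11 sample. They number 12779 of 26523 THP-1 intervals, or 48.2% (95% Wilson interval 47.6 to 48.8). The other 13744 THP-1 intervals shared at least 1 base with RS4;11 and are called shared here. In the mirror comparison, 10696 of 24212 RS4;11 intervals, or 44.2% (43.6 to 44.8), had no THP-1 overlap. All Wilson intervals below cover counting error over intervals or genes only, and none covers variation between cultures.

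THP-1 is a monocytic line of acute myeloid leukemia and RS4;11 is a B-precursor line of acute lymphoblastic leukemia, and the study describes both as carrying a rearranged MLL gene. Untreated cells of both lines, grown in RPMI1640 with fetal bovine serum, were used for ChIP-seq of WDR5 and of H3K4me3, with 1 sample for each of the 4 combinations of line and antibody. Each line is a single established culture, so no comparison between the lines could be checked on replicates, and no test was made. The labels name the line of each sample without conflict, but they give the THP-1 WDR5 and the RS4;11 H3K4me3 sample the leukemia type of the other line. The files hold positions and no tag counts, heights or p-values, so the depth is unknown and no interval could be weighted by its strength.

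H3K4me3 is the trimethylated form of lysine 4 on histone H3. It is laid down by complexes of the MLL/SET1 family, of which WDR5 is a core subunit, and it marks the start sites of genes that are transcribed or held ready for transcription. Monocytic cells are known for the growth factor receptor CSF1R, the lipopolysaccharide co-receptor CD14 and the antibacterial enzyme LYZ, and early myeloid cells for the peroxidase MPO.

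The markers bore out the label in part. An interval of 2418 bp over the CSF1R start site, chr5:149464331-149466748 (hg19), was listed in THP-1 and had no RS4;11 overlap. RS4;11 had 2 other intervals assigned to CSF1R. The nearer, 2028 bp wide and shared with THP-1, lay 3046 to 5073 bp downstream of the start. CD14 and LYZ carried shared intervals over their start sites, 1335 bp wide in THP-1 and 1004 bp in RS4;11 at CD14, and 2709 bp against 645 bp at LYZ. MPO had no interval over its start site in either line, and its only THP-1-only interval, 717 bp wide, lay 30855 bp or more downstream of the start. Thus 1 of the 4 markers had its start site inside a THP-1-only interval, and the set is called by its rule and not as a lineage set.

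The stretches of 200 bases nearest upstream of the start sites of CSF1R, CD14 and MPO, and of 3 myeloid or inflammatory genes with no RS4;11 interval assigned at all, are shown as the DNA around which the intervals were compared. They were read from GRCh37 along the strand of each gene, and moved upstream where an annotated exon of another transcript lay in the way. Capitals mark matches on either strand to GAGGAA (PU.1-type ETS), TTGCNNAA (C/EBP), TGANTCA (AP-1), the IRF composite element or TGTGGTT (RUNX). The stretches at CSF1R (chr5:149466171-149466370, minus strand), S100A8 (chr1:153363550-153363749, minus), MNDA (chr1:158800941-158801140, plus) and CXCL1 (chr4:74734910-74735109, plus) lay wholly inside THP-1-only intervals.
CSF1R: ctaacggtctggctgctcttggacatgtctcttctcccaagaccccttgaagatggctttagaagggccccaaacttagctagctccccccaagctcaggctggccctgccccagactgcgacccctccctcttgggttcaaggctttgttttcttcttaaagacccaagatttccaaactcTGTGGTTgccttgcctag
S100A8: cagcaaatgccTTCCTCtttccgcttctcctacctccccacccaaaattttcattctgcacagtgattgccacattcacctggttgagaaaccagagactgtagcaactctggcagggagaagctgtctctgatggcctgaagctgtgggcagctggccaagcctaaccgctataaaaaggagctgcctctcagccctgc
MNDA: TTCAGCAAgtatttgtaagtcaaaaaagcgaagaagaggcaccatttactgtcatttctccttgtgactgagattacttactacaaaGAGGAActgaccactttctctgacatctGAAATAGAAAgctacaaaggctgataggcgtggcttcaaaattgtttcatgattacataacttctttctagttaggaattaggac
CXCL1: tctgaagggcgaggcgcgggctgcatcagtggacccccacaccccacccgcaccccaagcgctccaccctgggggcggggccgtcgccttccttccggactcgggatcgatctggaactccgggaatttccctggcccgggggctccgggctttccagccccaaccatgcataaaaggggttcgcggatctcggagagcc

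For contrast, the stretch at CD14 (chr5:140012878-140013077, minus strand) touched shared intervals, and that at MPO (chr17:56358297-56358496, minus) touched none.
CD14: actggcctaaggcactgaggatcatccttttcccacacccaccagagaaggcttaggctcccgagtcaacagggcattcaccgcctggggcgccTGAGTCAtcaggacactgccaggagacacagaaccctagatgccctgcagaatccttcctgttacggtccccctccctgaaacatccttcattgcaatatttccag
MPO: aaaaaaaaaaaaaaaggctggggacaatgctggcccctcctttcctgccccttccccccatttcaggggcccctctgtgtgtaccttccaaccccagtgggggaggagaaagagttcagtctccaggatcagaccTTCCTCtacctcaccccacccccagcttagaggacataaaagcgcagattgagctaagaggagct

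A match is a run of letters and no evidence of binding. Over 200 bases directly upstream of all 19863 protein-coding start sites, 18.8% held the ETS letters, 5.40% the C/EBP letters, 3.73% the AP-1 letters, 2.20% the IRF composite element and 2.20% the RUNX letters. Among the 4 stretches inside THP-1-only intervals, MNDA held 1 match each to the ETS, C/EBP and IRF motifs, S100A8 held 1 ETS match, CSF1R held 1 RUNX match, and CXCL1 held none. Their GC content ran from 37.0% at MNDA to 68.5% at CXCL1.

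Some features of the lists bear on what "listed only in THP-1" means. The widest interval was 4446 bp in THP-1 and 4478 bp in RS4;11. From 4000 to under 4250 bp there were 245 THP-1 and 347 RS4;11 intervals, from 4250 to under 4500 bp there were 32 and 118, and above that there were 0 in both, so both lists ended at about the same width. Of the protein-coding start sites, 7757 of 19863, or 39.1%, lay in no listed interval of either line. Among 15 widely used genes the start sites of 8 lay in none, those of ACTB, GAPDH, B2M and TBP included, although such genes are transcribed in nearly every cell. Whether wider intervals were left out of the lists was not tested, and a gene with no listed interval is not shown to lack H3K4me3.

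THP-1-only intervals were narrow. Their median width was 863 bp with quartiles of 637 and 1284 bp, against a median of 1923 bp for shared THP-1 intervals with quartiles of 1145 and 2644 bp. Under 1000 bp lay 60.2% of the THP-1-only and 19.5% of the shared intervals, and at 3000 bp or more lay 3.61% and 15.8%. RS4;11-only intervals had a similar median of 896 bp.

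The share without an overlap fell with width and rose again near the upper limit. Of THP-1 intervals under 500 bp, 81.0% (79.0 to 82.8) were THP-1-only, and from 3000 to under 3500 bp 13.9% (12.2 to 15.8) were. From 3500 to under 4000 bp the share was 20.4%. At 4000 bp or more, 76 of 277, or 27.4% (22.5 to 33.0), were THP-1-only. The RS4;11 list also fell and rose, with 75.4% under 500 bp, a lowest share of 11.3% from 2500 to under 3000 bp, 216 of 1661 intervals from 3000 to under 3500 bp and 33.1% at 4000 bp or more. The rise at the widest intervals was thus present in both directions of the comparison.

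**Figure D1:**
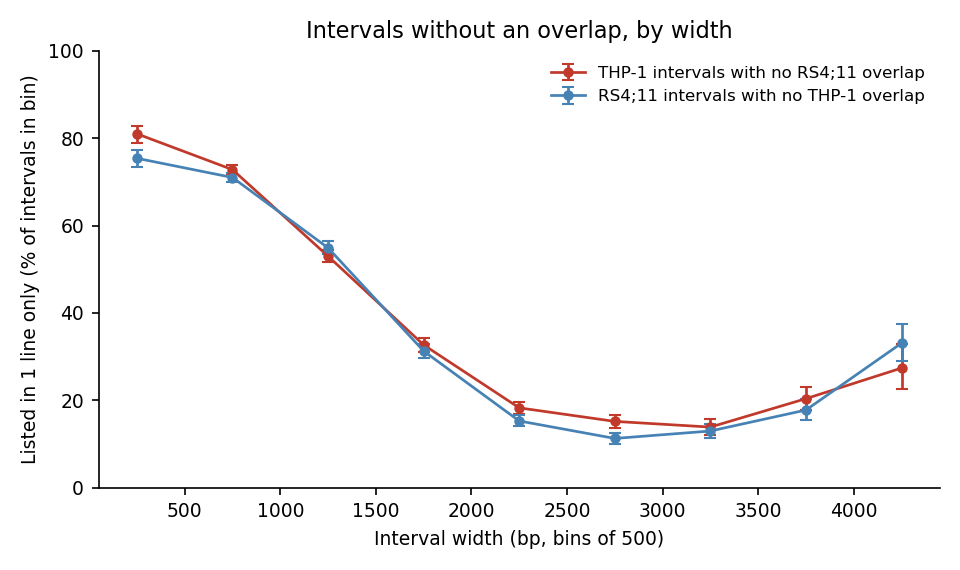
Share of H3K4me3 intervals with no overlap in the other line (y axis, %) by interval width in bins of 500 bp (x axis). Points are THP-1 and RS4;11 intervals and bars are 95% Wilson intervals, and both curves fall with width, lie lowest between 2500 and 3500 bp and rise from 3500 bp on.

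Where 1 THP-1 interval met 1 RS4;11 interval, in 13179 pairs, the median widths were close, at 1969 bp in THP-1 and 2088 bp in RS4;11. Width differences within pairs were not computed. The RS4;11 interval was the wider in 6941 pairs, or 52.7%. A THP-1-only interval was seldom a near miss of a shared one. The nearest RS4;11 interval lay a median of 20710 bp away with quartiles of 7755 and 59135 bp, and within 1000 bp in 336 members, or 2.63%. Just inside the rule stood intervals 3 bp from RS4;11 at LEMD3 (848 bp wide), 7 bp at BLNK (1706 bp) and 7 bp at SP4 (1225 bp), and just outside it intervals that shared 1 base at STAG2, 2 bases at WHAMML1 and 11 bases at FCHO1 and MAP1S.

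By the positions in the files, THP-1-only intervals lay inside genes but seldom at exons. Each interval carries flags that state whether it lies in an exon or intron of a transcript, or within 20 kb upstream or downstream of one. The exon flag was set for 3601 THP-1-only intervals, or 28.2% (27.4 to 29.0), against 65.3% (64.5 to 66.1) of shared ones. The upstream flag was set for 43.3% against 74.0%. The intron flag alone was set for 4627 members, or 36.2%, against 13.4% of shared intervals, and 3512 members, or 27.5%, lay outside every transcript, against 17.6%. RS4;11-only intervals were farther still from starts, with 21.0% (20.3 to 21.8) flagged exon and 45.5% flagged intron alone.

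**Figure D2:**
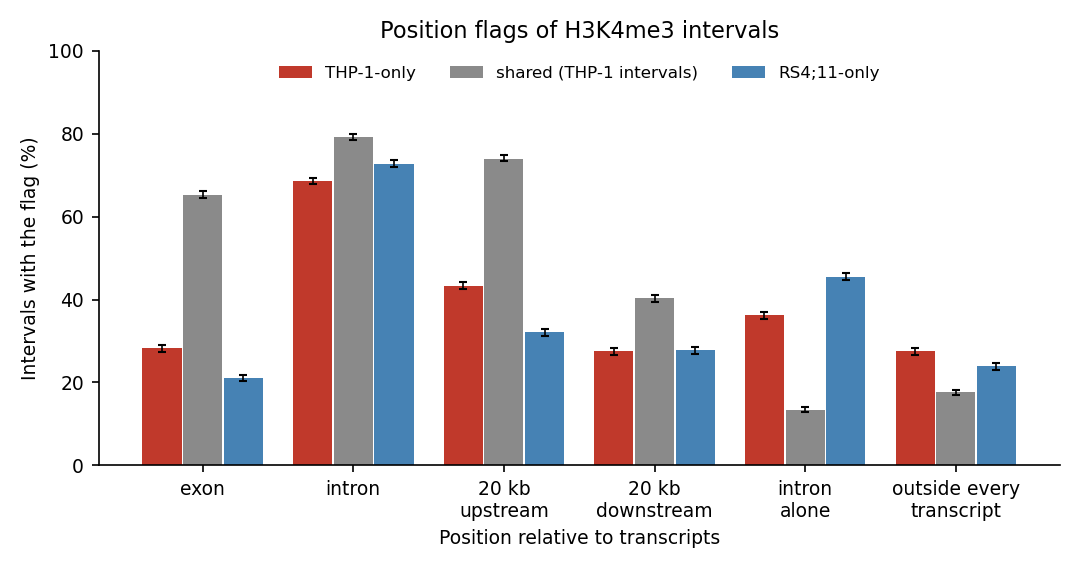
Percentage of intervals (y axis) with each position flag (x axis) for THP-1-only, shared and RS4;11-only H3K4me3 intervals, with 95% Wilson intervals as bars. Exon flags were set for 28.2%, 65.3% and 21.0% of the 3 classes, and the intron flag alone for 36.2%, 13.4% and 45.5%.

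Distances to start sites gave the same order. A protein-coding start site lay inside 2016 of 12753 THP-1-only intervals on the main chromosomes, or 15.8% (15.2 to 16.5), inside 7552 of 13735 shared THP-1 intervals and inside 7.71% (7.21 to 8.23) of RS4;11-only intervals. The median distance from interval center to start site was 16493 bp in THP-1-only, 708 bp in shared and 28144 bp in RS4;11-only intervals. The THP-1-only intervals over a start site were wider, with a median of 1800 bp, than those away from one, with a median of 795 bp. Of the former 219, or 10.9%, reached 3500 bp, and of the latter 40, or 0.373%.

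Chromosomes differed. Among autosomes the THP-1-only share was lowest on chromosome 19, at 582 of 1591 intervals or 36.6% (34.2 to 39.0), and on chromosome 17, at 38.0%. It was highest on chromosome 8, at 706 of 1210 or 58.3% (55.5 to 61.1), and on chromosome 4, at 56.9%. Copy number of the 2 lines was not analysed here.

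Members came in runs. Of 5793 runs of consecutive THP-1-only intervals, 2833 held 1 interval, and 57 held 10 or more, with 704 members between them. The longest, of 23 intervals with a median width of 790 bp, spanned 5.00 Mb at chr9:20683250-25679718. It covered an intron of KIAA1797, the neighborhood of the type I interferon genes IFNB1, IFNW1 and several IFNA genes, DMRTA1, the neuronal RNA-binding protein gene ELAVL2, and TUSC1, whose interval of 3481 bp was the widest. RS4;11 listed 0 intervals over that span and 0 for 7.26 Mb around it, from chr9:19630956 to 26890158. Of all stretches between neighboring RS4;11 intervals on autosomes, this one held the most members. Inside the run, 1.21 Mb around the CDKN2A start site, chr9:21236513-22446019, held 0 intervals in both lines. Gains, losses and depth of this arm were not tested, and they cannot be told apart from a lack of the mark.

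The next run, of 19 intervals over 1.97 Mb at chr9:755657-2728470, lay around the DM-domain genes DMRT1, DMRT3 and DMRT2 and the remodeling ATPase gene SMARCA2. There RS4;11 listed 4 intervals between the members. Runs of 17 lay at chr12:83239001-87057700, at chr4:170947075-174451785 with the cardiac and neural crest factor gene HAND2, and at chr6:147124548-148831489 with 10 intervals assigned to SASH1. RS4;11 listed 2, 3 and 2 intervals there. By gene, the most THP-1-only intervals were assigned to PARK2, with 20 of its 21 THP-1 intervals, to SDK1 and TSNAX-DISC1 with 14 each, and to FRMD4A and MCF2L2 with 13 each. PARK2, which encodes the ubiquitin ligase parkin, spans 1380 kb, and SDK1, an adhesion molecule gene, spans 968 kb.

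The strictest set of genes consisted of symbols with an exon-flagged THP-1-only interval and no row of any kind in the RS4;11 list. It held 1042 of the 18494 symbols in either list, a background of 5.63%. An exon-flagged THP-1-only interval of any kind was found for 3470 symbols, or 18.8%. The mirror of the strict set in RS4;11 held 341 symbols, or 1.84%. These counts follow from the rule and are given as background for the gene lists below.

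The strict genes with the widest intervals were RNF146, a ubiquitin ligase (4380 bp), C1orf9 (4335 bp), HS2ST1, which sulfates heparan chains (4303 bp), TOP2B, the beta form of topoisomerase II (4300 bp), and ATP5J, a subunit of mitochondrial ATP synthase (4293 bp). They went on with C15orf42 (4279 bp), the autophagy enzyme gene ATG3 and the neighboring SLC35A5, which share 1 interval (4265 bp), WDR49 (4253 bp), and the ribosomal protein gene RPS3 with the small nucleolar RNA SNORD15A in it (4234 bp). All of these intervals were over 4000 bp wide, near the end of the lists, and RS4;11 had 0 intervals assigned to these genes. Over all strict symbols the widest exon-flagged member had a median of 1660 bp, 96 symbols, or 9.21%, had one of 3500 bp or more, and 212, or 20.3%, had one under 1000 bp only. Without members of 3000 bp or more, an alternative chosen after seeing the data, 912 symbols stayed in the set.

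The gene lists are given next by role. A start site counted as shared where a shared interval of either line covered it, even if the interval it met in the other line did not. For start sites the background of every list is 10.7% in THP-1-only and 4.67% in RS4;11-only intervals. Over the 6 myeloid and inflammatory lists, 107 of 112 genes had a row in either file. An exon-flagged THP-1-only interval was found for 29 of them, or 27.1%, against 18.8% of all symbols, and 4, or 3.74%, were strict, against 5.63%. The order of these shares depended on the rule. With exon or 20 kb upstream flags 7, or 6.54%, were members, against 8.56% of all symbols, and where only exon-flagged RS4;11 rows barred a gene 21, or 19.6%, were, against 13.7%. By start site, 23 of 112, or 20.5%, lay in a THP-1-only interval, against 10.7% of all protein-coding genes (2116 of 19863), 14, or 12.5%, in an RS4;11-only interval, against 4.67%, 43 in a shared one and 32 in none. The 23 intervals ran from 693 bp at CD86 to 4020 bp at MNDA with a median of 1967 bp.

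**Figure D3:**
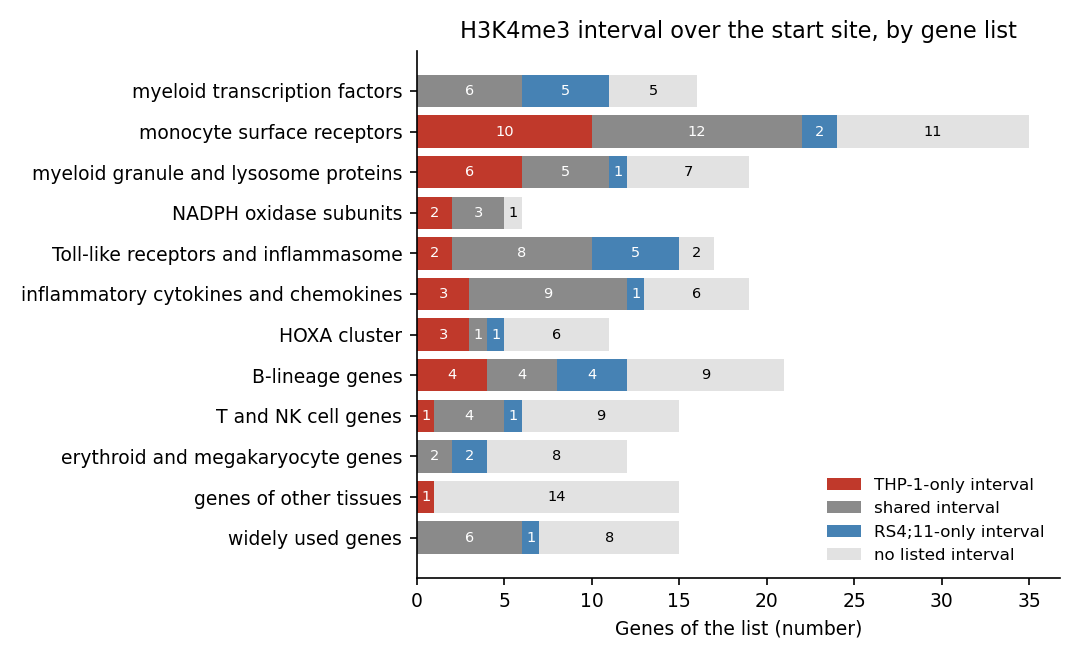
Number of genes (x axis) of each of 12 gene lists (y axis) whose start site lay in a THP-1-only, a shared, an RS4;11-only or no listed H3K4me3 interval. A start counts as shared if a shared interval of either line covers it. By count, THP-1-only starts were most numerous among monocyte surface receptors (10 of 35) and granule proteins (6 of 19), and numbered 0 among myeloid transcription factors, erythroid and megakaryocyte genes and widely used genes.

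By count, surface receptors held the most THP-1-only starts. Of 35 monocyte surface receptor genes, 10, or 28.6%, had the start site in a THP-1-only interval, a smaller share than in the shorter lists of NADPH oxidase genes (33.3%) and granule proteins (31.6%). Besides CSF1R these were CSF3R, the receptor of G-CSF (1837 bp), the integrins ITGAM (1763 bp) and ITGAX (1935 bp), the chemokine receptor CCR2 (3784 bp), the lectin CLEC12A (2336 bp), the costimulatory molecule CD86 (693 bp), CD4 (2219 bp), the formyl peptide receptor FPR2 (961 bp) and the signaling adaptor TYROBP (2761 bp). ITGAX was the only strict gene among them, with 3 THP-1-only intervals and 0 in RS4;11. The start sites of 12 lay in a shared interval, those of CLEC4A and SIRPA in an RS4;11-only one, and 11 in none.

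Granule and lysosome proteins followed. Of 19 genes, 6, or 31.6%, had a THP-1-only start site. They were the neutrophil elastase gene ELANE (3581 bp), the calprotectin subunits S100A8 (715 bp) and S100A9 (800 bp), the ribonucleases RNASE2 (2788 bp) and RNASE3 (1269 bp), and the myeloid nuclear antigen MNDA (4020 bp). S100A8, with 1 THP-1 interval, and MNDA, with 2, were strict. The start of the cathepsin G gene CTSG lay in an RS4;11-only interval.

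Of the 6 subunits of the phagocyte NADPH oxidase, which makes superoxide, the catalytic subunit CYBB (727 bp) had a THP-1-only start site, and NCF1, the start of which lay in no interval, had its only interval in RS4;11. NCF1 has near-identical pseudogenes, and the authors kept unique alignments only. Among 17 Toll-like receptor and inflammasome genes, TLR2, a receptor of bacterial lipopeptides (2419 bp), and NOD2, a sensor of cell wall fragments (2189 bp), were THP-1-only at the start. That share, 11.8%, was near the background of 10.7%. TLR7, TLR9, TLR10, IRAK3 and NLRP3 were RS4;11-only at the start, or 29.4%, against 4.67%. Among 19 cytokine and chemokine genes, IL1A (750 bp), IL18 (1840 bp) and CXCL1 (1967 bp) were THP-1-only at the start, or 15.8%, against 10.7%. CXCL1, which attracts neutrophils, was strict. The start of IL6 lay in an RS4;11-only interval of 738 bp, while 3 THP-1-only intervals lay around it.

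Myeloid transcription factors had more starts in RS4;11-only than in THP-1-only intervals. None of 16 had a THP-1-only interval at an exon or at its start, against the backgrounds above. For start sites, 16 genes are too few to set a count of 0 apart from 10.7%. The start sites of 5, among them SPI1 (which encodes PU.1), IRF8, IRF5 and EGR2, lay in RS4;11-only intervals, and the one at SPI1 was 3100 bp wide. Shared intervals covered the starts of 6 and no interval those of the other 5. Among the 6, the CEBPE start lay in the RS4;11 interval alone. The THP-1 interval that it met lay 421 to 1149 bp upstream of that start. THP-1 listed only a shared interval of 3143 bp 14214 to 17356 bp upstream of SPI1.

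In the HOXA cluster, whose homeobox genes are known targets of MLL fusion proteins, 6 of the 7 THP-1 intervals were THP-1-only, from 607 to 2846 bp wide. RS4;11 listed 2 intervals over the cluster with 101 kb between them, and all 6 members lay in that stretch. HOXA4 (1642 bp), HOXA5 (2846 bp) and HOXA7 (1519 bp) had THP-1-only start sites and were strict. They were 3 of 11 genes, or 27.3%, against 10.7% of all protein-coding genes. The start of HOXA13 lay in an RS4;11-only interval, which makes 9.09%, against 4.67%. A list of 11 adjacent genes is too short to set these shares apart from those backgrounds. HOXA9 and HOXA10 had no interval over the start in either line.

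B-lineage genes stood in the lists of both lines. By start site, 4 of 21, or 19.0%, lay in a THP-1-only interval, against 10.7% of all protein-coding genes, and 4, or 19.0%, in an RS4;11-only interval, against 4.67%. Of 21 with a row, 8, or 38.1%, had an exon-flagged THP-1-only interval, against 18.8% of all symbols. PAX5, RAG2 and LEF1 were strict in THP-1, or 14.3%, against 5.63% of all symbols. POU2AF1 was the 1 gene of the 21 in the mirror set of RS4;11, which held 1.84% of all symbols. The RAG2 interval, 1664 bp wide, was assigned to C11orf74 as well and did not cover the RAG2 start. The start of PAX5, the factor that commits cells to the B lineage, lay in a THP-1-only interval of 4037 bp, chr9:37033662-37037698, and RS4;11 had 0 intervals assigned to it. EBF1 (2472 bp at the start, 12 THP-1-only intervals in all), BLNK (1706 bp) and LEF1 (2859 bp) were THP-1-only at the start too. The BLNK interval lay only 7 bp from an RS4;11 interval. At EBF1 RS4;11 listed 7 intervals, 5 of them RS4;11-only, and none over the start. RS4;11-only intervals covered the starts of CD79A (2816 bp), POU2AF1 (3337 bp) and FCRLA, among others. CD79A and CD79B encode the signaling pair of the B-cell receptor, and at CD79B the shared intervals were 946 bp in THP-1 and 2921 bp in RS4;11. Markers of the other lineage thus stood in both lists, and the part of this in the myeloid counts was not tested.

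**Figure D4:**
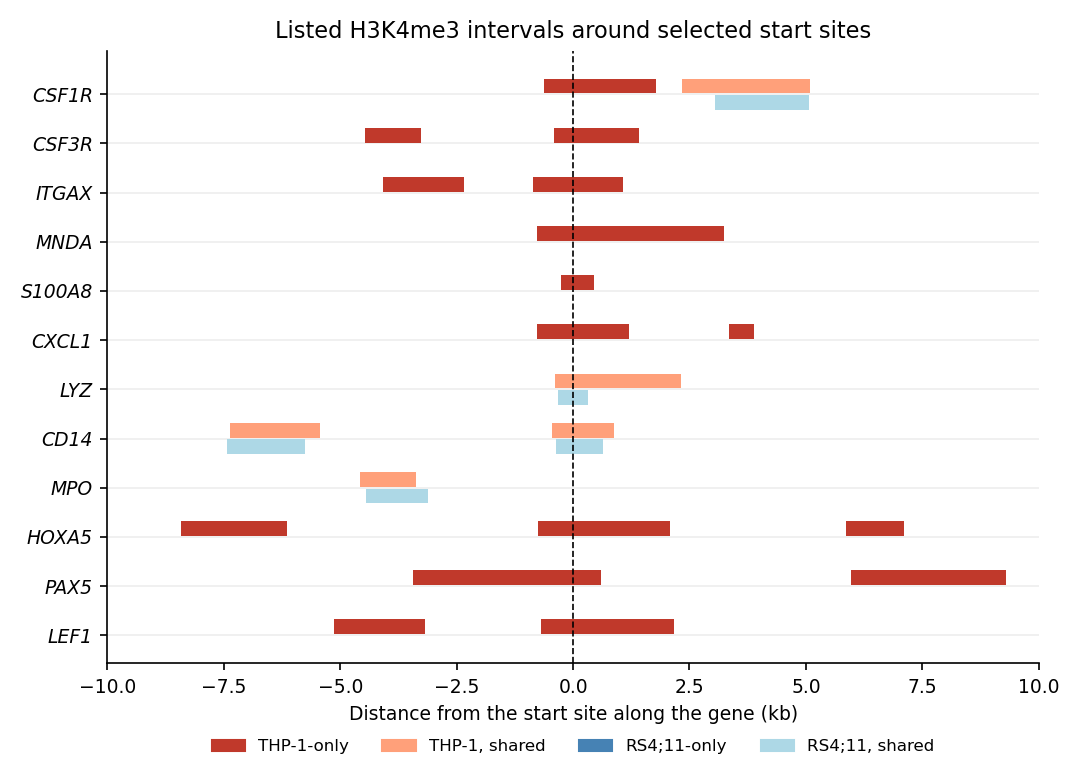
Listed H3K4me3 intervals within 10 kb of 12 start sites, drawn as bars along the distance from the start in kb (x axis, downstream to the right), with THP-1 above and RS4;11 below each gene line (y axis). THP-1-only intervals cross the start at CSF1R, CSF3R, ITGAX, MNDA, S100A8, CXCL1, HOXA5, PAX5 and LEF1, and shared ones at LYZ and CD14.

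Lists of other cells held 0 or 1 THP-1-only start each, against 10.7% of all protein-coding genes. With 12 to 15 genes a list, they are too short to set such counts apart from that share. Of 15 T and NK cell genes, CD8A had a THP-1-only start site, and ZAP70 an RS4;11-only one. Of 12 erythroid and megakaryocyte genes 0 had a THP-1-only start, although TAL1 and GP1BA had an exon-flagged THP-1-only interval. Of 15 genes of other tissues, NEUROD1, a factor of neurons and endocrine cells, was strict, with 4 THP-1-only intervals of 786 to 1638 bp and 0 in RS4;11, and 14 had no interval over the start. Among 15 widely used genes, 0 had a THP-1-only start, and PPIA had an RS4;11-only one of 3945 bp.

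WDR5 peaks were few beside the H3K4me3 intervals, so only a small share of members could meet one. Shared THP-1 intervals were also wider, with a median of 1923 bp against 863 bp in members, and the shares below were not set equal for width. Of 225 WDR5 peaks in THP-1 and 703 in RS4;11, THP-1 peaks overlapped 8 THP-1-only intervals, or 0.0626% (0.0317 to 0.123), and 19 shared ones, or 0.138% (0.0885 to 0.216). RS4;11 peaks overlapped 13 THP-1-only intervals, or 0.102% (0.0595 to 0.174), 40 shared ones, or 0.291% (0.214 to 0.396), and 16 RS4;11-only ones, or 0.150% (0.0921 to 0.243), from a longer list of WDR5 peaks. The widest of the 8 was an exon-flagged interval of 2256 bp at chr22:24108676-24110931, near CHCHD10, MMP11 and C22orf15 and 18222 bp or more upstream of the remodeling subunit gene SMARCB1. The next, 1263 bp wide, covered the ROBO1 start at chr3:79815946-79817208. The others lay near C18orf55, FCHO2, GLI2, MAMDC2, DGCR6 and copies of DUX4 on an unplaced contig. The last 3 of these also met an RS4;11 WDR5 peak.

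Sequence, like the WDR5 peaks, was a readout that the rule did not use. In central windows, which took in 250 bp to each side of the central base, THP-1-only intervals had a median GC content of 47.1% with quartiles of 40.9 and 57.5%, against 59.3% in shared THP-1 intervals and 47.1% in RS4;11-only ones. Windows with over 50% GC and an observed to expected CpG ratio over 0.6, called CpG-rich here, made up 21.5% (20.8 to 22.2) of THP-1-only, 51.3% (50.4 to 52.1) of shared and 7.94% (7.44 to 8.47) of RS4;11-only intervals. Of the 2743 CpG-rich members 1459 lay over start sites, where the share was 72.4%, against 1284 of 10737 windows away from them. Away from start sites RS4;11-only windows were CpG-rich in 3.56%.

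Motif letters differed between the lines' own intervals. TTGCNNAA, the C/EBP motif, stood in 29.5% (28.7 to 30.3) of THP-1-only windows, in 21.1% (20.3 to 21.9) of RS4;11-only and in 16.5% (15.9 to 17.1) of shared ones, against 20.6% over all intervals of both files. TGTGGTT, the RUNX motif, stood in 9.97% (9.46 to 10.5) of THP-1-only, 19.5% (18.7 to 20.2) of RS4;11-only and 8.09% (7.64 to 8.56) of shared windows, against 11.0% over all, so the RS4;11-only class stood apart from the other 2. CAGNTG, the E-box bound by E proteins, stood in 67.5% (66.7 to 68.3) of THP-1-only, 76.5% (75.7 to 77.3) of RS4;11-only and 67.6% (66.8 to 68.4) of shared windows, against 69.4% over all. C/EBP factors are known for myeloid and E proteins for lymphoid gene control, and RUNX1 acts in both.

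The other motifs differed less between THP-1-only and RS4;11-only windows when all windows were pooled. GAGGAA was found in 49.0% (48.1 to 49.9) and 49.7% (48.8 to 50.7), with 46.6% over all. TGANTCA was found in 17.3% (16.6 to 17.9) and 14.7% (14.1 to 15.4), with 12.6% over all, and CCAAT, the NF-Y motif, in 42.6% and 44.0%, with 40.2%. The IRF composite element stood in 14.0% (13.4 to 14.6) and 11.1% (10.6 to 11.8), with 10.7%. Both strands were searched. TGANTCA reads the same on both, while CAGNTG reads CANCTG on the other strand, and either form counted as a match.

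Base composition moves with these shares. Within windows of under 45% GC, the C/EBP letters stood in 40.9% (39.5 to 42.2) of THP-1-only and 29.1% (27.8 to 30.5) of RS4;11-only windows, and the RUNX letters in 12.9% (12.1 to 13.9) and 24.4% (23.2 to 25.7). From 45 to 55% GC the C/EBP shares were 30.7% and 19.1% and the RUNX shares 11.0% and 20.1%. At 55% GC or more the C/EBP letters stood in 450 of 3739 and 275 of 2678 windows, whose Wilson intervals, 11.0 to 13.1% and 9.18 to 11.5%, overlapped, while the RUNX shares still stood at 4.65% and 10.4%. The ETS shares, close when pooled, were 51.1% (49.8 to 52.5) in THP-1-only and 46.2% (44.8 to 47.7) in RS4;11-only windows under 45% GC, and 43.1% (41.5 to 44.7) and 50.2% (48.3 to 52.1) at 55% GC or more. The AP-1 order turned too at 55% GC or more, at 7.81% in THP-1-only and 10.4% in RS4;11-only windows. In shared windows the C/EBP share was 32.1% (30.2 to 34.1) under 45% GC and 24.9% (23.4 to 26.4) from 45 to 55%. Both lay above the RS4;11-only shares, unlike when pooled, though the intervals under 45% GC overlapped. At 55% GC or more it was 9.36%, with overlapping intervals. The RUNX share of shared windows under 45% GC, 16.8% (15.3 to 18.4), lay above the THP-1-only share, unlike when pooled. At higher GC those intervals overlapped. Away from start sites the C/EBP shares were 32.7% in THP-1-only and 21.9% in RS4;11-only windows, and the RUNX shares 11.0% and 20.6%.

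**Figure D5:**
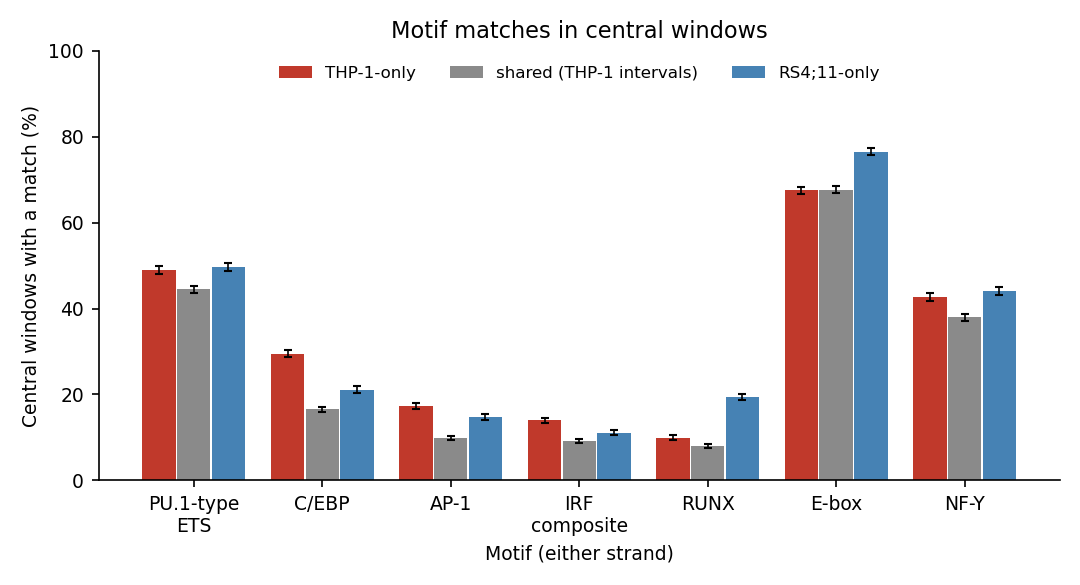
Percentage of central windows, 250 bp to each side of the center, (y axis) with at least 1 match to each of 7 motifs (x axis), for THP-1-only, shared and RS4;11-only intervals, with 95% Wilson intervals as bars. THP-1-only windows stand highest for C/EBP (29.5%), and RS4;11-only windows for RUNX (19.5%) and the E-box (76.5%). Windows of all GC contents are pooled.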

How the data were processed

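Each of the 4 ChIP-seq samples (WDR5 or H3K4me3, THP-1 or RS4;11) was analysed without replicates. According to the methods, the authors sonicated the chromatin for WDR5, digested it with micrococcal nuclease for H3K4me3, aligned reads to hg19 with Eland (unique alignments, up to 2 mismatches), called peaks with MACS at default settings per sample and annotated them with a script of their own. Per the labels' processing notes, CASAVA 1.7 and 1.8.2 were used. The MACS version and any input control are not given in the sources used here.

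The deposited files hold, per the file headers, intervals with yes or no position flags and no other measured unit. Lines were reduced to distinct intervals. An interval was THP-1-only if it shared no base with an RS4;11 H3K4me3 interval. The first line of the RS4;11 H3K4me3 file held its header mixed with archive remains and was skipped, and about 1 line of that file may be missing from the copy used here. Intervals farther than 20 kb from a transcript were not analysed here. Start sites were those of the canonical protein-coding transcripts of GENCODE release 44 on GRCh37. Promoters ran from 2000 bp upstream to 500 bp downstream, and 26 members on haplotypes and unplaced contigs were left out of sequence and start site counts. Symbols were matched as written or through a single older symbol.

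The members, the 12 gene lists and the 7 motifs were chosen with earlier results of these data known. Named genes were the 4 markers, strict list genes, the 10 strict genes with the widest intervals, the 5 symbols with most members, members with a THP-1 WDR5 peak, the longest runs and the intervals nearest the threshold. Other list genes were named by their start site after their values were seen. Some genes and sequences that this rule selects are not reported here. Overlap rules, width limits, flag rules, windows and gene sets were varied. Interval, Wilson and motif functions were tested on simulated data. Python 3.11.15 and pysam 0.24.0 were used.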

Additional observations from a re-analysis of the deposited data

How the results depend on the processing

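The THP-1-only share of 48.2% became 46.9% when an RS4;11 interval within 1000 bp counted as an overlap, 40.1% within 5000 bp, 47.5% with intervals of at least 500 bp in both files and 31.5% with THP-1 intervals of at least 1000 bp. The strict set of 1042 symbols grew to 1583 with exon or 20 kb upstream flags and to 2529 when only exon-flagged RS4;11 rows barred a gene, and its myeloid and inflammatory members grew from 4 (3.74% against 5.63% of all symbols) to 7 (6.54% against 8.56%) and 21 (19.6% against 13.7%). CpG-rich members made up 19.1% over whole intervals. With 500 bp to each side of the center the ETS letters stood in 68.7% of THP-1-only and 67.0% of shared intervals. Members centered in promoters were 14.7%, 17.7% with 1000 bp to each side, and 19.5% with all annotated genes. The wider windows, flags and gene sets admit more by construction. The other 12 of 25 alternatives moved their value by less than its Wilson interval or, for counts and the median width, 1.5 times.

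No paired analysis was possible because each line has 1 sample per antibody. The lists give no counts, heights or p-values. Neither depth nor peak strength was set equal between the lines, and the error between cultures is unknown. Depth, the width limit of the lists and the absence of the mark cannot be told apart at a missing interval.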
